A study of Mus musculus with 2 samples.

Results

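The 17 genes described here are the interleukin, interleukin receptor and TNF superfamily genes of the deposited table whose symbols start with Il and a digit, Tnfsf, Tnfrsf or Tnfaip. Il1a, Il1b, Il1r2, Il2ra, Il2rb, Il7r, Il4i1, Tnfrsf4 and Tnfrsf18 were set aside. The 17 were taken from 2000 genes by symbol alone, with no measured value. They are Il1rn, Il1f9, Il33, Il12b, Il6, Il21 and Tnfsf15, which encode secreted or released factors, the receptor genes Il1r1, Il18r1, Il5ra, Il17rc, Tnfrsf9, Tnfrsf12a, Tnfrsf17, Tnfrsf19 and Tnfrsf23, and Tnfaip2, a gene induced by TNF.

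Interleukins and TNF family ligands are the short-range signals by which tumor cells, fibroblasts and leukocytes act on one another. Receptors of the interleukin-1 family and of the TNF superfamily signal mainly through adaptor proteins to NF-kB, and many cytokine receptor chains signal through JAK kinases and STAT factors. Decoy receptors and receptor antagonists bind the same partners without signalling, so a tissue can hold the activating and the blocking arm of a pathway at the same time.

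The cells came from whole pancreatic tumors of C57/BL6 mice, taken at day 14 after MT4 cells, an organoid line of pancreatic adenocarcinoma from the KPC mouse model, had been placed in the pancreas. The fl/fl library held the pooled tumors of 3 Ahr fl/fl mice. The Ahr cKO library held those of 3 mice with the same floxed alleles and LysM-Cre, a driver whose recombinase is made in myeloid cells such as neutrophils and macrophages. The product of Ahr is the aryl hydrocarbon receptor (AHR), a transcription factor switched on by small ligands. Age and sex are not given in the sources used here. Live cells were sorted without DAPI and loaded on a 10X Genomics chip, which gave 5196 fl/fl and 4577 Ahr cKO cells. The comparison asks how tumor cells and leukocytes differ when Ahr is deleted in myeloid cells.

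The values are scaled scores, in which a difference between cells is relative to a gene's own spread, so levels of different genes were not compared. For each gene, the minimum over fl/fl cells was held by most of them and was taken as its zero level, and the share of cells above it is given with an exact Clopper-Pearson 95% interval for counting error only. The median number of genes above zero was 108 per fl/fl cell, used here as a measure of depth, since the depth in molecules is unknown. In the Ahr cKO library this zero level was largely lost (a median over genes of 55.8% of cells at it, against 96.0%), as after a batch correction that no source states. Shares are therefore given for fl/fl cells, and differences between libraries are given as deposited and with the shift of neighbouring cells removed. Ahr was above zero in 18.6% of Macrophage-like, 17.4% of Tumor epithelial-like and 0.353% of Neutrophil-like fl/fl cells. Its deposited difference in Macrophage-like cells was 0.15, and -0.073 with the correction removed. The deleted exons are not given, so these values do not check the deletion. There was 1 library per genotype, so no difference between genotypes has a replicate check and no test was made.

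The libraries share cell barcodes. Of the barcodes, 656 were in both libraries (12.6% of fl/fl and 14.3% of Ahr cKO cells), and 629 of these pairs fell in the same cluster. The profiles of a pair had a median correlation of 0.431 over genes, against 0.102 for another Ahr cKO cell of the same cluster. Cells with such a barcode made up 797 of 898 cells of Cluster 0, 376 of 626 Monocyte-like and 70 of 643 DC-like cells, but 21 of 533 Neutrophil-like and 3 of 968 Tumor epithelial-like cells. The main values for Cluster 0 and Monocyte-like cells are given with and without them.

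Cells were clustered without the 17 genes, so their distribution over cell types does not rest on their own values. Of 23 clusters, 4 stayed unnamed: Cluster 0 (led by Vim, Fcgr1, Atf3, Cd14 and Ccl2), Cluster 9 (hemoglobin and collagen genes), Cluster 18 (Ptma, Ran and Ncl) and Cluster 22 (Vpreb1, Dntt and Rag1). Of the 17 genes, 10 reached 5% of the fl/fl cells of some named cell type with at least 50 fl/fl cells, and Il1r1 reached this share in Cluster 9. The other 6 were Il12b, Tnfrsf17, Il6, Il21, Tnfrsf19 and Tnfsf15, with between 6 and 17 fl/fl cells each, although Tnfrsf17 passed 5% in the 43 Plasma cell-like cells. B-lineage-like cells had a mean of 0.063 of the 17 genes above zero per cell, the lowest of all classes and clusters. In them 9 genes were above zero in 0 of 604 cells (upper limit 0.609%), and all but Il5ra were under 1%. These cells were shallow, with a median of 72 genes above zero, the same as in Neutrophil-like cells, where 77.0% of cells had at least 1 of the 17 genes against 6.13%. Tumor epithelial-like cells had the most of the 17 at 5% or more, with 8 genes, and a median depth of 146 genes. Of all 2000 genes, 1204 reached 5% in these cells, so the count of 8 is not read as a trait of the 17 genes.

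**Figure D1:**
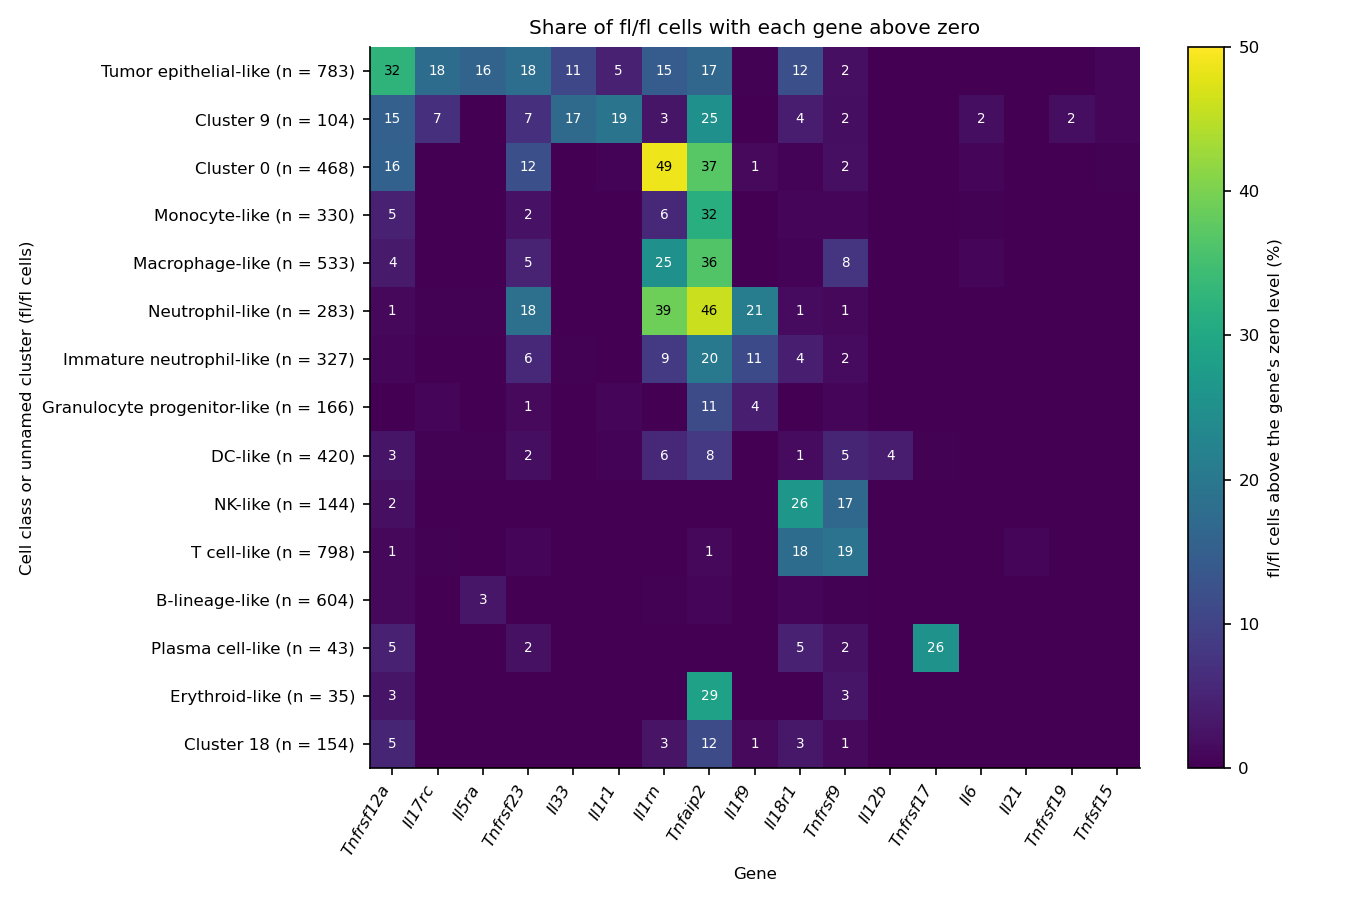
Percentage of fl/fl cells above each gene's zero level (colour and printed value where at least 1%), for the 17 genes (columns) in named cell classes and unnamed clusters (rows, with the number of fl/fl cells). Tumor epithelial-like cells fill the left columns, Cluster 0 and Neutrophil-like cells the Il1rn and Tnfaip2 columns, and NK-like and T cell-like cells the Il18r1 and Tnfrsf9 columns.

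The interleukin-1 family split between myeloid, stromal and tumor cells. Il1rn (ENSMUSG00000026981, chr2:24336853-24351494, GRCm38) encodes the interleukin-1 receptor antagonist, which occupies the receptor without signalling. Its share was 48.7% of Cluster 0 (44.1% to 53.4%, 228 of 468 cells), 38.9% of Neutrophil-like (33.2% to 44.8%) and 25.1% of Macrophage-like fl/fl cells (21.5% to 29.1%). Without shared barcodes the Cluster 0 share was 30.1% of 73 cells. In B-lineage-like cells it was 0.331%. Monocyte-like cells, at 5.76% (5.0% without shared barcodes), were far below Cluster 0 and Macrophage-like cells, and their intervals did not overlap. Among macrophages, Arg1 and Fn1 cells (cluster 16) had Il1rn in 31.1% (24.9% to 37.9%) and C1q cells (cluster 10) in 21.3% (16.96% to 26.2%), with overlapping intervals and median depths of 170 and 118 genes. Neutrophil markers moved with it: at least 2 of 10 were above zero in 38.8% of Macrophage-like cells with Il1rn and 25.3% of those without, and their median depths were 271.5 and 99.0 genes. In Tumor epithelial-like cells, 14.6% of which had Il1rn, the same shares were 55.3% and 23.6%, at 662.5 and 134 genes. The part of neutrophil RNA in either share was not tested.

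Il1f9 (ENSMUSG00000044103, chr2:24186476-24193568) encodes interleukin-36 gamma, an activating member of the same family, and lies 143 kb from Il1rn. Of its 117 positive fl/fl cells, 60 were Neutrophil-like, 37 Immature neutrophil-like and 7 Granulocyte progenitor-like. The share went from 4.22% of progenitor-like cells (1.71% to 8.495%) to 8.37% of cluster 4 (Camp, Ngp and Cebpe), 16.1% of cluster 6 (Ltf, Ifitm6 and Cd177) and 21.2% of Neutrophil-like cells (16.6% to 26.4%). Neighbouring steps had overlapping intervals, whereas progenitor-like and Neutrophil-like cells did not overlap. The depth did not rise with it, with medians of 93.0, 97.0, 98.0 and 72.0 genes. Outside the granulocyte classes it was above zero in 13 cells, and the 6 of these in Cluster 0 all had a shared barcode.

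Il33 (ENSMUSG00000024810, chr19:29925114-29960718) encodes an alarmin of the interleukin-1 family that epithelial and stromal cells release when damaged, and Il1r1 (ENSMUSG00000026072, chr1:40225080-40317257) the signalling interleukin-1 receptor. Both were in the collagen-rich Cluster 9 and in tumor cells. Il33 was above zero in 17.3% of Cluster 9 (10.6% to 26.0%) and 10.9% of Tumor epithelial-like cells (8.76% to 13.3%), which together held 103 of its 106 positive cells. Il1r1 was above zero in 19.2% of Cluster 9 (12.2% to 28.1%) and 4.598% of Tumor epithelial-like cells (3.24% to 6.31%). At resolution 2 a Fibroblast-like cluster of 55 fl/fl cells (Sparc, Col1a1 and Dcn) separated from Cluster 9, with Il33 and Il1r1 each above zero in 32.7% (20.7% to 46.7%). Il6 was in 2 and Tnfrsf19 in 2 of those 55 cells. Il1r1 was rare in cells rich in the antagonist, above zero in 2 of 468 Cluster 0 cells and in 0 of 283 Neutrophil-like cells. It was as rare in cells that almost lacked Il1rn, with 0 of 604 B-lineage-like, 0 of 144 NK-like and 1 of 798 T cell-like cells.

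The promoter windows of Il1rn, Il1f9 and Tnfrsf23 are shown because these were the 3 genes at 5% or more that differed by at least 0.1 between the libraries in Neutrophil-like cells, a class in which LysM-Cre is known to act. Each is the RefSeq window from 250 bases before to 50 after a transcript start (GRCm38.p6), printed 5′ to 3′ on the gene's strand. Capitals mark matches on either strand to GCGTG, the core bound by AHR with ARNT (HIF factors bind the same letters), or to TGANTCA, the AP-1 motif. In Neutrophil-like cells, 25.9% of all genes at 5% or more were higher by at least 0.1 in Ahr cKO and 16.7% were lower. Ahr was above zero in 0.353% of the fl/fl cells there.

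Il1rn, chr2:24336610-24336909, plus strand: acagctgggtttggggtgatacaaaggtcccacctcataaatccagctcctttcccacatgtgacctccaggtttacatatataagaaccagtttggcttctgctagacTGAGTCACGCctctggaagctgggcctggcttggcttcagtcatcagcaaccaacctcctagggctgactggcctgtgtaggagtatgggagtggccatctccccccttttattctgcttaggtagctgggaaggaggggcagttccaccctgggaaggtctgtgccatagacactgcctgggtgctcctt

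Tnfrsf23, chr7:143685826-143686125, minus strand: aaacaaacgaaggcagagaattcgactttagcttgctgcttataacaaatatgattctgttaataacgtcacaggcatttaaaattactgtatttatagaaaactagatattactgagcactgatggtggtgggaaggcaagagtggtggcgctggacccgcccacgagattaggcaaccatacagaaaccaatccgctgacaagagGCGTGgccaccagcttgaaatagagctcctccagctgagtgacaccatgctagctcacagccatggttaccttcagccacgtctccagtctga

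Il1f9, chr2:24186226-24186525, plus strand: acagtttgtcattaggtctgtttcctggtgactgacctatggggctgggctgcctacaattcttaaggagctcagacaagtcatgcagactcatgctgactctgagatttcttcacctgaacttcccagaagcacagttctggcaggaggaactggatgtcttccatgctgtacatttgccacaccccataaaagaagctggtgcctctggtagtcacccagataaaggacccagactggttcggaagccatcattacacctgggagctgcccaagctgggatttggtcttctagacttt

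The Il1rn window, one of 3 for this gene, holds an AP-1 match that overlaps a GCGTG match. The Tnfrsf23 window holds 1 GCGTG match, and the Il1f9 window holds neither motif. All 17 genes were matched to 25 windows. Of these, 9 windows (7 genes) held GCGTG, against 32.4% of all 32851 windows and 4 windows (Il1rn, Il5ra, Il6 and Tnfrsf9) held TGANTCA, against 7.81%. A match describes letters only.

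Neutrophil-like cells held 4 of the 17 genes at 5% or more, beside Il1rn and Il1f9 also Tnfaip2 and Tnfrsf23. Of all 2000 genes, 317 reached this share there. Tnfaip2 (ENSMUSG00000021281, chr12:111442469-111455018), whose product promotes membrane nanotubes, was above zero in 45.9% (40.02% to 51.9%). Tnfrsf23 (ENSMUSG00000037613, chr7:143665809-143685872), a mouse decoy receptor for the death ligand TRAIL, was above zero in 18.4% (14.0% to 23.4%). The 4 genes were not spread alike over neutrophils. At resolution 2, neutrophils led by Ier3, Cxcl2 and Hcar2 (152 fl/fl cells) had Il1rn in 52.0% (43.7% to 60.1%) and Tnfrsf23 in 25.7% (18.9% to 33.4%). Those led by Retnlg and Csf3r (130 cells) had Il1rn in 23.9% (16.8% to 32.1%) and Tnfrsf23 in 10.0% (5.43% to 16.5%), and neither pair of intervals overlapped. Tnfaip2 ran the other way, with 40.1% and 53.1%, and Il1f9 stood at 19.1% and 23.9%, both with overlapping intervals. The median depths were 76.0 and 62.0 genes, and how many of all genes lacked overlap between these 2 clusters was not counted. In single Neutrophil-like cells, Tnfrsf23 was above zero in 25.5% of cells with Il1rn and 13.9% of the rest, whereas Tnfaip2 was in 44.5% and 46.8%.

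Tnfaip2 was also the most widely found of the 17 genes, at 5% or more in 10 classes or clusters of at least 50 fl/fl cells. The share was 36.4% of Macrophage-like (32.3% to 40.6%), 37.0% of Cluster 0 (31.5% without shared barcodes) and 31.5% of Monocyte-like cells (32.1% without them). In granulocytes it was in 11.5% of progenitor-like (7.03% to 17.3%), 20.2% of Immature neutrophil-like (15.97% to 24.95%) and 45.9% of Neutrophil-like cells. DC-like cells were lower, at 8.33% (5.87% to 11.4%). T cell-like cells had it in 9 of 798 cells and B-lineage-like cells in 4 of 604. In C1q macrophages it was in 67.5% of the deeper and 12.4% of the shallower cells (median depths 275 and 69.0 genes), so shares of cell types of unlike depth are not directly comparable.

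**Figure D2:**
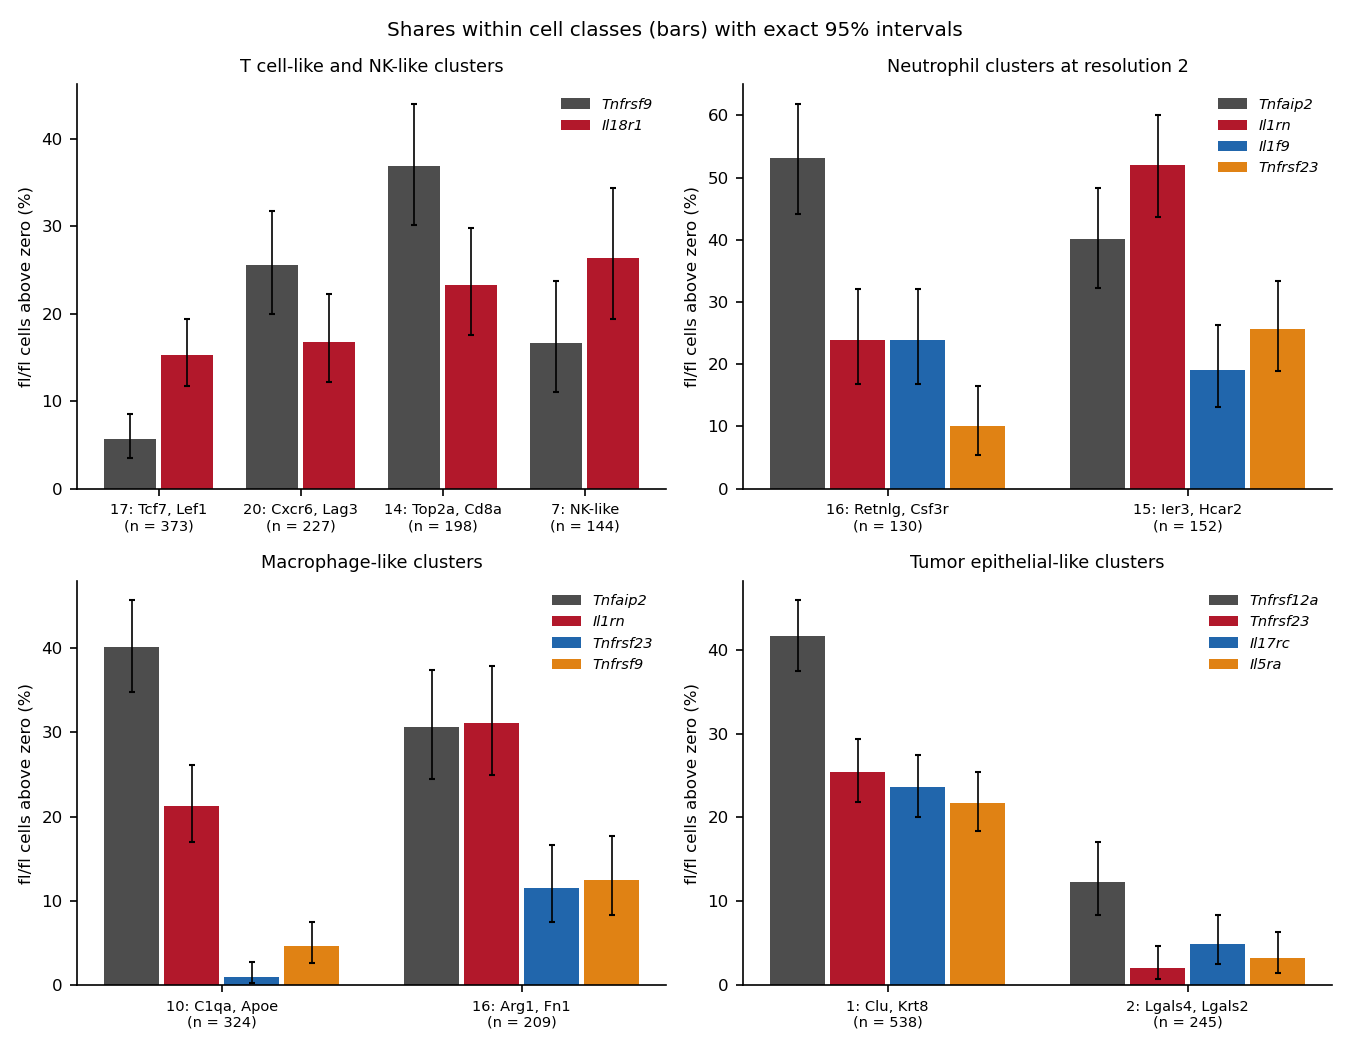
Bars give the percentage of fl/fl cells above zero for named genes in clusters of 4 cell classes, with exact 95% intervals (counting error) and the number of fl/fl cells. Tnfrsf9 runs from 5.63% of Tcf7 and Lef1 T cells to 36.9% of Top2a T cells, Il1rn from 23.9% to 52.0% between the neutrophil clusters, and the tumor cell genes are lower in cluster 2.

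Among lymphocytes, T cell-like and NK-like cells carried Tnfrsf9 and Il18r1, whereas B-lineage-like cells had them in only 0.331% and 0.662%. Tnfrsf9 (ENSMUSG00000028965, chr4:150914562-150946102) encodes 4-1BB, a costimulatory receptor of activated T and NK cells. It was above zero in 5.63% of T cells led by Tcf7 and Lef1 (cluster 17, 3.52% to 8.48%), 25.6% of T cells led by Cxcr6 and Lag3 (cluster 20, 20.01% to 31.7%) and 36.9% of cycling Cd8a T cells (cluster 14, 30.1% to 44.0%). Cluster 17 did not overlap the others, whose intervals overlapped, and the median depths were 95, 120 and 162.5 genes. NK-like cells had it in 16.7% (11.0% to 23.8%). At resolution 2, a Regulatory T cell-like cluster of 85 cells had it in 16.5% (9.31% to 26.1%). Tnfrsf9 was not confined to lymphocytes: it was above zero in 12.4% of Arg1 macrophages (8.29% to 17.7%) and 4.63% of C1q macrophages (2.61% to 7.52%), and in 13.6% of migratory DC-like cells at resolution 2 (6.43% to 24.3%). At least 2 of 12 T cell markers were above zero in 7.32% of the 41 Macrophage-like cells with Tnfrsf9 and 7.93% of those without. The median depths of these cells were 234 and 132 genes. In DC-like cells the same shares were 18.2% (of 22 cells) and 10.3%, and the part of T cell RNA in either class was not tested.

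Il18r1 (ENSMUSG00000026070, chr1:40465552-40500854), 148 kb from Il1r1, encodes the chain that binds interleukin-18, a cytokine that drives interferon gamma in NK and T cells. It was above zero in 26.4% of NK-like cells (19.4% to 34.4%). The T cell clusters differed little in it, with 15.3% in cluster 17 (11.8% to 19.3%), 16.7% in cluster 20 (12.1% to 22.3%) and 23.2% in cluster 14 (17.5% to 29.8%), all overlapping. Myeloid cells were lower, with 3 of 533 Macrophage-like, 3 of 330 Monocyte-like and 4 of 283 Neutrophil-like cells, and 4.28% of Immature neutrophil-like cells (2.36% to 7.08%). In T cell-like cells, Il18r1 was above zero in 27.6% of cells with Tnfrsf9 and 15.3% of the rest, whose median depths were 171 and 99.0 genes.

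Tumor epithelial-like cells carried a set of receptor genes. Tnfrsf12a (ENSMUSG00000023905, chr17:23675445-23677468) encodes Fn14, the receptor for TWEAK, and was above zero in 32.4% of these cells (29.2% to 35.8%, 254 of 783). Il17rc (ENSMUSG00000030281, chr6:113471427-113483140), a chain of the interleukin-17 receptor, was above zero in 17.8% (15.1% to 20.6%), and 139 of its 151 positive fl/fl cells were of this class. Il5ra (ENSMUSG00000005364, chr6:106710357-106749037) encodes the interleukin-5 binding chain, known from eosinophils and B cells. It was above zero in 15.96% (13.5% to 18.7%, 125 of its 146 cells), against 2.98% of B-lineage-like cells (1.78% to 4.67%). At least 2 of 6 B-lineage markers were above zero in 2.40% of tumor cells with Il5ra and 8.66% of those without, at median depths of 712 and 132 genes. The part of B-lineage RNA in the Il5ra share was not tested. Tnfrsf23 was above zero in 18.1% and Il18r1 in 12.3%. In tumor cells with Il18r1, at least 2 of 12 T cell markers were above zero in 9.38%, against 4.51% of those without, at median depths of 704.5 and 134 genes.

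Most of these cells lay in cluster 1 (Clu, Krt8 and Krt18). Tnfrsf12a was in 41.6% of its 538 fl/fl cells (37.4% to 45.9%) and in 12.2% of the 245 cells of cluster 2 (Lgals4 and Lgals2, 8.42% to 17.02%). The corresponding shares were 23.6% and 4.90% for Il17rc, 21.8% and 3.27% for Il5ra, 25.5% and 2.04% for Tnfrsf23, and 16.5% and 2.86% for Il18r1, none with overlapping intervals. Depth moved with this difference, with medians of 203.5 and 111 genes. How many of all genes lacked overlap between clusters 1 and 2 was not counted. Within cluster 1, the deeper cells (median 549 genes) had Tnfrsf12a in 67.7% and Il17rc in 41.3%, and the shallower cells (median 112 genes, as in cluster 2) in 15.6% and 5.95%. For Tnfrsf23 the shallower cells of cluster 1 still stood at 8.55% against 2.04% in cluster 2. For Tnfrsf12a and Il17rc they were close to cluster 2, as for Il5ra (4.46% against 3.27%) and Il18r1 (2.60% against 2.86%). The receptors were found together in deep cells: Il5ra was above zero in 37.4% of tumor cells with Tnfrsf12a and 5.67% of those without, whose median depths were 516 and 121 genes.

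**Figure D3:**
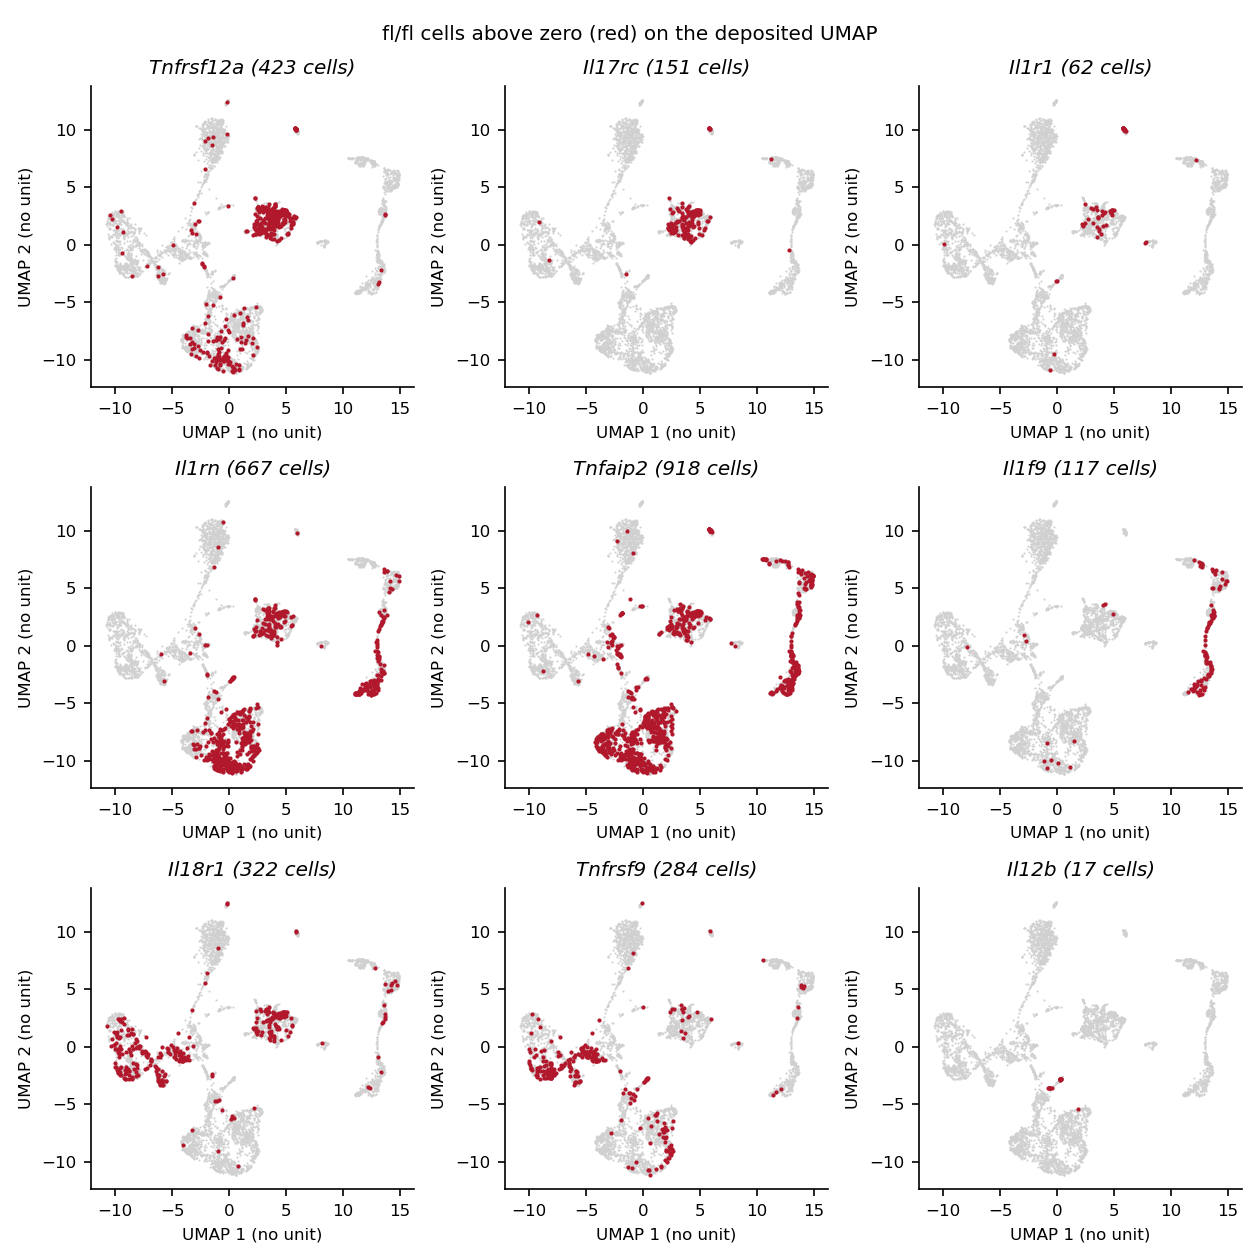
Each panel shows the fl/fl cells on the 2 deposited UMAP axes (no unit), grey for all cells and red for those above zero for the gene named, with their number. Tnfrsf12a and Il17rc mark the epithelial island, Il1rn and Tnfaip2 the myeloid islands, Il1f9 the granulocyte arc, and Il18r1 and Tnfrsf9 the T and NK cells. Of the 322 Il18r1 cells, 96 were Tumor epithelial-like. Most of the 17 Il12b cells lie in 2 small spots.

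The 6 rarer genes were found in few cells. Il12b (ENSMUSG00000004296, chr11:44400063-44414033) encodes the p40 chain shared by interleukin-12 and interleukin-23, and 16 of its 17 fl/fl cells were DC-like. All 16 fell in 1 resolution 2 cluster of 66 migratory DC-like cells (Fscn1, Ccr7 and Cacnb3), a share of 24.2% (14.5% to 36.4%). Tnfrsf17 (ENSMUSG00000022496, chr16:11313812-11320074) encodes BCMA, a survival receptor of plasma cells. It was in 25.6% of Plasma cell-like cells (13.5% to 41.2%, 11 of 43) and in 4 other fl/fl cells. Il21 (ENSMUSG00000027718, chr3:37222759-37232636), a helper T cell cytokine, was in 6 cells, all T cell-like. Il6 (ENSMUSG00000025746, chr5:30013114-30019981) was in 12 cells: 5 Macrophage-like, 4 in Cluster 0 (all with shared barcodes), 2 in Cluster 9 and 1 Monocyte-like. Tnfsf15 (ENSMUSG00000050395, chr4:63727084-63745113), the ligand TL1A, was in 7 cells, of which 5 were Tumor epithelial-like. Tnfrsf19 (ENSMUSG00000060548, chr14:60963875-61046490) was in 6 cells, and 2 of these were among the 4 fl/fl cells of Cluster 22, which was led by the B cell precursor genes Vpreb1, Dntt and Rag1.

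Between the libraries, 10 of 30 pairs of a gene and a cell type, each with the gene in at least 5% of the fl/fl cells, differed by at least 0.1 scaled units in the deposited values, 7 higher and 3 lower in Ahr cKO. Over all gene and cell type pairs of the table, 20.7% were higher and 17% lower by this limit, so the count for the 17 genes lay near the background. With the correction removed, 7 of 27 pairs with an estimate were higher and 4 lower, against 23.7% and 13.7% of all pairs. The second form of this estimate gave 5 higher and 7 lower, but the shares of all pairs were not computed for it. Without shared barcodes 7 were higher and 3 lower, but Tnfrsf9 in NK-like cells left the count (0.054) and Tnfaip2 in Neutrophil-like cells entered it (0.10).

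In Neutrophil-like cells, Il1f9 was the gene that was higher (25.9% of all genes were higher there), with a mean of 1.27 (SD 3.00 over 283 cells) in fl/fl and 1.51 (SD 3.53 over 250 cells) in Ahr cKO, a difference of 0.24. With the correction removed the difference was 0.66 (0.46 in the second form). The share of cells at least 1 unit above zero was 20.5% (15.95% to 25.7%) in fl/fl and an estimated 31.2% (25.5% to 37.3%) in Ahr cKO, with intervals that overlapped narrowly. Both neutrophil clusters of resolution 2 had a positive difference, 0.34 in the Hcar2 and 0.17 in the Retnlg cluster. Immature neutrophil-like cells moved the same way, by 0.22 (0.18 and 0.11 with the correction removed), against 13.8% of all genes that were higher and 21.0% that were lower there. Their shares were 6.12% (3.78% to 9.29%) and 13.2% (8.96% to 18.5%), and clusters 4 and 6 differed by 0.11 and 0.18.

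Il1rn and Tnfrsf23 were lower in Neutrophil-like cells, where 16.7% of all genes were lower. Il1rn had means of 1.33 (SD 2.67) and 1.15 (SD 2.58), a difference of -0.18, or -0.43 and -0.36 with the correction removed. Its share at least 1 unit above zero was 35.0% (29.4% to 40.9%) in fl/fl and an estimated 26.0% (20.7% to 31.9%) in Ahr cKO, with overlapping intervals. The neutrophil subsets were not equally frequent: the Hcar2 subset, which is high in Il1rn, had 152 fl/fl and 114 Ahr cKO cells, and the Retnlg subset 130 and 134. Within them the deposited Il1rn difference was -0.011 and -0.034, and the shares were 49.3% against 41.2% and 18.5% against 13.4%, all with overlapping intervals. Tnfrsf23 had means of 1.04 (SD 2.85) and 0.85 (SD 2.86), a difference of -0.19 that was -0.016 in the first and -0.23 in the second form of the estimate. Tnfaip2 differed by 0.021, and no estimate was made for it because it was above zero in over 40% of cells. Its neutrophil clusters went opposite ways, by 0.33 in the Hcar2 and -0.29 in the Retnlg cluster, with overlapping shares of 39.5% against 38.6% and 49.2% against 37.3%.

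In NK-like cells both genes at 5% or more were higher, where 22.7% of all genes were higher and 17.8% lower. Il18r1 had means of 0.72 (SD 1.91 over 144 cells) and 1.12 (SD 2.32 over 121 cells), a difference of 0.40, or 0.21 and 0.15 with the correction removed. The shares of cells at least 1 unit above zero were close, with 24.3% (17.6% to 32.2%) and 25.6% (18.1% to 34.4%). Tnfrsf9 differed by 0.11, a value of 0.054 without shared barcodes and of 0.0090 and -0.053 with the correction removed. In T cell-like cells Tnfrsf9 was lower by 0.11 (22.7% of all genes were lower and 6.34% higher there), with -0.17 and -0.19 in the estimates, and shares of 15.04% (12.6% to 17.7%) and 10.9% (8.88% to 13.1%), which overlapped. The clusters changed in size between the libraries: cycling cluster 14 had 198 fl/fl and 94 Ahr cKO cells, and cluster 17, lowest in Tnfrsf9, had 373 and 552. Within clusters 14, 17 and 20 the deposited Tnfrsf9 difference was 0.037, -0.023 and 0.13. Il18r1 was 0.034 over T cell-like cells but 0.35 in cluster 20, with shares of 16.7% (12.1% to 22.3%) and 25.0% (19.5% to 31.1%), and -0.14 in cluster 14.

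**Figure D4:**
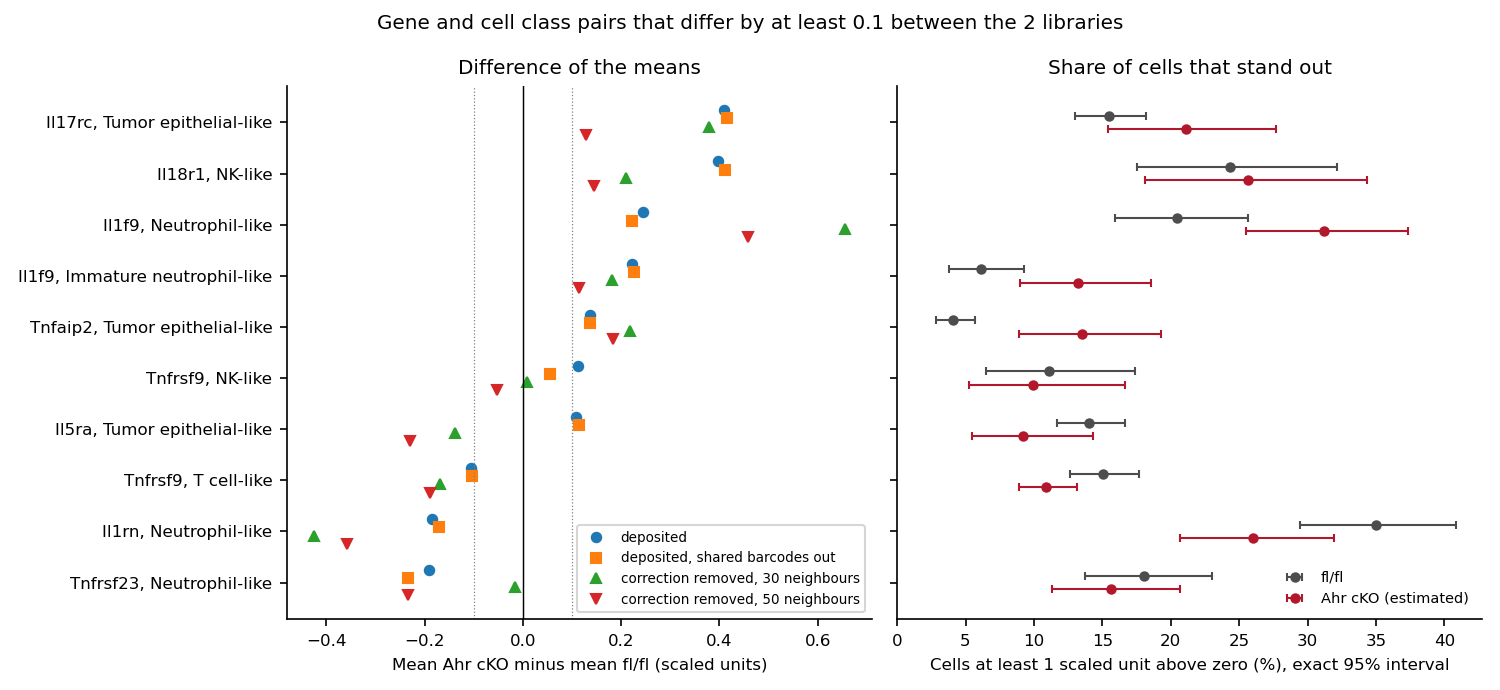
Left, mean Ahr cKO minus mean fl/fl value in scaled units for the 10 pairs of a gene and a cell class that differed by at least 0.1 (dotted lines), as deposited, without shared barcodes, and with the correction removed in 2 forms. Right, percentage of cells at least 1 unit above zero in each library with exact 95% intervals, estimated in Ahr cKO. Il5ra in Tumor epithelial-like and Tnfrsf9 in NK-like cells change side, whereas all other pairs, among them Il1f9 and Il1rn in Neutrophil-like cells, keep their side in every form shown.

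Of the 8 genes at 5% or more in Tumor epithelial-like cells, 3 were higher (39.0% of all genes were higher and 15.6% lower there): Il17rc by 0.41, Tnfaip2 by 0.14 and Il5ra by 0.11. Il17rc had means of 0.63 (SD 2.15 over 783 cells) and 1.04 (SD 2.49 over 185 cells), and the difference was 0.38 and 0.13 with the correction removed. Its shares were 15.5% (12.99% to 18.2%) and 21.1% (15.4% to 27.7%). In cluster 1 they were 20.3% and 20.1%, and in cluster 2, with 46 Ahr cKO cells, 4.90% (2.56% to 8.399%) and 23.9% (12.6% to 38.8%). Tnfaip2 kept its difference (0.22 and 0.18), with shares of 4.09% (2.81% to 5.72%) and an estimated 13.5% (8.94% to 19.3%). These intervals did not overlap, but how many of all genes lacked overlap there was not counted. Tumor cells with Tnfaip2 had macrophage markers more often, with at least 2 of 8 in 26.2% against 10.1% in fl/fl, at median depths of 641.5 and 132 genes, and the part of macrophage RNA in the library difference was not tested. Il5ra went from 0.11 to -0.14 and -0.23 with the correction removed. Tnfrsf12a differed by -0.042, although 41.6% of cluster 1 cells had it.

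As deposited, no gene of the 17 at 5% or more differed by 0.1 in Macrophage-like, Monocyte-like, DC-like or Granulocyte progenitor-like cells, and none reached 5% in B-lineage-like cells. In that order, the first classes held only 4, 2, 3 and 1 of the 17 genes at 5% or more, too few to set against the shares of all genes. Of all genes, 18.2% were higher and 9.26% lower in Macrophage-like cells, 13.1% and 5.6% in Monocyte-like, 16.9% and 11.5% in DC-like, and 21.2% and 40.5% in Granulocyte progenitor-like cells. With the correction removed, Tnfrsf9 was 0.13 higher in Macrophage-like cells (0.054 in the second form). Tnfaip2 was 0.12 lower in Monocyte-like cells (0.14 lower in the second form), with shares at least 1 unit above zero of 20.9% (16.7% to 25.7%) and 14.2% (10.4% to 18.7%). Without shared barcodes these were -0.11, 12.9% and 10.0%. The macrophage clusters were not alike for Il1rn, which was 0.10 higher in cluster 10 and 0.26 lower in cluster 16, with a value of -0.039 over both. Their shares at least 1 unit above zero overlapped, at 4.63% and 6.67% in cluster 10 and 14.8% and 11.2% in cluster 16. In Cluster 0 no gene of the 17 at 5% or more differed by 0.1 as deposited (8.76% of all genes were higher and 4.54% lower there), with -0.058 for Il1rn and -0.077 for Tnfaip2. With the correction removed Tnfaip2 was -0.25 (-0.27 without shared barcodes), and Tnfrsf12a went from 0.13 to -0.068 when shared barcodes were left out. Without shared barcodes, which left 73 fl/fl and 28 Ahr cKO cells, the deposited differences were -0.092 for Il1rn, -0.042 for Tnfaip2, -0.12 for Tnfrsf12a and -0.16 for Tnfrsf23. In Cluster 18, Tnfrsf12a was 0.11 lower (30.8% of all genes were lower and 23.6% higher there), from 8 positive fl/fl cells. Tnfrsf9, below 5% there, was 0.33 higher (0.39 and 0.36 with the correction removed), with shares of 0.649% (0.0164% to 3.57%) and an estimated 7.14% (3.75% to 12.1%). The intervals did not overlap, but how many of all genes lacked overlap in Cluster 18 was not counted.

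Genes below 5% of a cell type, and cell types of under 50 cells in a library, were left out of these counts. Below 5%, further pairs of a gene and a cell type or unnamed cluster differed by at least 0.1 as deposited. The share of all genes below 5% that passed this limit was not computed, so their number is not read as a result. In Tumor epithelial-like cells these were Tnfsf15 (0.27), Il1r1 (0.14) and Tnfrsf19 (0.13), all higher. In DC-like cells they were Il12b (0.19) and Il6 (-0.11), in Macrophage-like cells Il6 (-0.16), in Neutrophil-like cells Tnfrsf12a (-0.11), in NK-like cells Tnfrsf12a (0.10), in Cluster 0 Tnfsf15 (-0.20) and in Cluster 18 Tnfrsf9. Removing the correction gave Il6 in Macrophage-like cells 0.27 (0.041 in the second form), and Tnfsf15 in Tumor epithelial-like cells 0.11 and -0.098. Il12b in migratory DC-like cells was at least 1 unit above zero in 24.2% of 66 fl/fl and an estimated 51.9% (32.0% to 71.3%) of 27 Ahr cKO cells. The capped value of 10 was reached by 12 fl/fl and 4 Ahr cKO DC-like cells. Tnfrsf17 in Plasma cell-like cells was at 25.6% of 43 and an estimated 61.5% (40.6% to 79.8%) of 26 cells, with 9 and 5 cells at the cap. In the whole libraries Il6 reached the cap in 11 and 11 cells, Il21 in 4 and 7, Tnfrsf19 in 6 and 4, and Tnfsf15 in 7 and 3. The estimated shares ran differently: Tnfsf15 was at 0.639% and 9.19% of Tumor epithelial-like cells, Tnfrsf19 at 0% and 4.32% of them, and Il6 at 0.938% and 6.52% of Macrophage-like cells. Their intervals did not overlap, but these cover counting error within 1 library each. How many of all genes lacked overlap in this way was not counted. The count at the cap and the estimated share therefore give no common direction for these genes.

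Few other genes of these pathways were in the table: 3 of 14 TNF superfamily genes under other symbols, 3 of 23 NF-kB genes, 2 of 22 JAK-STAT genes and 6 of 21 other cytokine genes. In NK-like cells, where Il18r1 and Tnfrsf9 were higher, so were both NF-kB genes at 5% or more (Icam1 by 0.31 and Traf1 by 0.10), Socs1, an inhibitor of JAK signalling, by 0.23, and 3 of 3 of the genes set aside (Il2rb, Il7r and Tnfrsf18). Under the correction removal Icam1 was 0.17, Socs1 0.30, Il7r 0.23 and Tnfrsf18 0.23, but Traf1 (0.058) and Tnfrsf9 (0.0090) fell under 0.1, and Il2rb had no estimate. Of all 489 genes at 5% in these cells, 111 were higher. In Neutrophil-like cells Osm and Csf1 were higher by 0.29 and 0.23, and Tnf and Il1a lower by 0.10 and 0.15. With the correction removed Osm was -0.33 and Il1a 0.018, whereas Csf1 was 0.11 and Tnf -0.14. In Macrophage-like cells Socs1 and Socs2, inhibitors of cytokine receptor signalling, were higher by 0.16 and 0.10 (0.12 and 0.080 with the correction removed), and Tnip3, an inhibitor of NF-kB signalling, was lower by 0.16 (-0.025).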

How the data were processed

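Per the labels' protocols, 1 library was made per genotype from pooled tumors, and the submitters' processing notes list Cell Ranger 3.0.0, Seurat 3.1.4 and mm10/GRCm38. Each gene's deposited value in a cell is a score scaled by the authors, with a largest value of 10 and a smallest of -25.91. The deposited UMAP coordinates were used as positions only, for the UMAP panels and an alternative clustering. No filter on cells, doublet removal or batch correction is stated, and all cells were used. Of the cells, 260 fl/fl and 204 Ahr cKO cells were possible doublets (at least 3 markers of each of 2 cell families) and were kept in the main values.

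Python 3.11.15, numpy 2.4.6, scikit-learn 1.9.0 and scanpy 1.11.5 were used. Cells of both libraries were clustered from 30 principal components of 1983 genes, 15 neighbours and the Leiden method at resolution 1, and named from marker lists (mean marker score at least 0.5, next cell family below 0.5 times it, at least 3 markers in the table, as many of its own markers as of another family among the 10 leading genes, and at least 50 cells). A cycling cluster (score 0.25 or more) with none of its own markers among these genes stayed unnamed, a rule added after seeing the data. The correction was removed by subtracting the 0.3 quantile of a gene over the 30 nearest Ahr cKO cells of the cluster (second form, 50 cells and 0.5 times the share at zero). This was done for genes whose share was below 40% in each cluster of the cell type. The removal was also run on simulated shifts built from neighbouring cells, scored only for true differences of at least 0.2. That run does not cover smaller differences, and its outcome is not given here. Every one of the 17 genes is named. They are given with values where they reached 5% of fl/fl cells of a cell type, and differences of at least 0.1 in cell types of at least 50 cells per library are named. The genes, lists and tests were chosen with earlier results of these data known.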

Additional observations from a re-analysis of the deposited data

How the results depend on the processing

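The count of genes at 5% of a named cell type with at least 50 fl/fl cells was 10 and lay between 10 and 12 under every alternative run. Of the pairs of a gene and a cell type, 7 were higher and 3 lower in Ahr cKO. Other clusterings (all genes, resolution 2, 15 components, the deposited UMAP), leaving out possible doublets and leaving out shared barcodes (chosen after seeing the data) gave 6 to 8 higher and 2 to 4 lower. The second form of the correction removal gave 7 lower and 5 higher, and a limit of 0.2 gave 4 higher and 0 lower. Shares of all pairs were not computed for these settings, so such counts are not compared with a background. Il5ra in Tumor epithelial-like cells changed sign to -0.14 (30 neighbours) and -0.23 (50 neighbours) with the correction removed, and the cause was not tested. It fell under 0.1 at resolution 2 (0.028), with the deposited UMAP (0.039) and with possible doublets left out (0.065). Tnfrsf9 in NK-like cells fell under the limit of 0.1 with 15 components (0.093), the deposited UMAP (0.086), shared barcodes left out (0.054) and the correction removed (0.0090 and -0.053). Tnfrsf9 in T cell-like cells was -0.092 with possible doublets left out, and Tnfrsf23 in Neutrophil-like cells -0.017 in the first form of the correction removal. Il18r1 in NK-like cells ranged from 0.15 to 0.63 and stayed above 0.1 in each of these. No paired analysis was possible because each genotype had 1 library. Leaving out a replicate was not possible for the same reason. Depth limits the rare genes: a share of 0 of 604 cells allows up to 0.609%, and intervals cover counting error only.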
